A study of Ovis aries with 6 samples.

Results

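The renin-angiotensin system was followed in RNA sequencing data from the perirenal fat depot, which surrounds the kidney, in wild-type Merino sheep (pure bred). Its genes were chosen by name from the full gene table. Of 8 names looked for, 7 had a row among 24390 genes (AGT, AGTR1, AGTR2, MAS1, ENPEP, LNPEP and ATP6AP2), and ACE was not analysed here because no row carries that name. The samples were 3 lambs, given in the labels as 89 days old (with a spread of 7 days), as 80 days after birth and as 12 weeks old, and 3 fetuses at 132 days post conception (term 150 days), each library from its own animal. The labels state that no animal was treated and that pregnant ewes were fed to their maintenance energy requirement. VEH stands in the lamb titles and is not explained there; a vehicle treatment, if meant, and likewise weaning and age, cannot be told apart from stage. The sex of the animals is not in the labels, and AGTR2 and ATP6AP2 lie on the X chromosome.

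The precursor angiotensinogen, the product of AGT, is cut to angiotensin I, and angiotensin-converting enzyme trims this to angiotensin II. Angiotensin II acts on the type 1 receptor (AGTR1), which constricts vessels and couples to Gq proteins, and on the type 2 receptor (AGTR2), which is typically abundant before birth and opposes many type 1 effects. ENPEP and LNPEP are membrane aminopeptidases that shorten or bind angiotensin peptides, MAS1 is the receptor of a shorter fragment, and ATP6AP2 binds prorenin and belongs to the vacuolar proton pump. Adipose tissue is known to make angiotensinogen and to carry type 1 receptors.

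Lamb libraries held 15907128 to 17263780 counts and fetal libraries 17535892 to 19150428. Mitochondrial genome genes took 7.37 to 8.29% of the counts in lambs and 27.5 to 40.7% in fetuses. Values are in CPM, the counts of a gene per 1000000 of its library, scaled by TMM factors, which correct for such differences in composition, and differences are on the log2 scale, lamb minus fetal. The adipocyte marker ADIPOQ, which encodes adiponectin, stood at 17294 ± 3168 CPM in lambs and 10486 ± 1239 CPM in fetuses (SD, n = 3 each). Of 10 kidney markers 2 (SLC34A1 and AQP2) had 0 counts everywhere, and the 10 summed to 7.06 to 10.1 CPM in lambs and 6.80 to 9.14 CPM in fetuses. All 7 urothelial markers were called lower in lambs, against 22.7% of all genes tested. Each had 6 or fewer counts in every lamb library and cleared the filter on low counts in the fetal libraries only. These markers were thus tested through the stage in which they are high, so lower was the only direction a call could take. They summed to 0.39 to 0.47 CPM in lambs and 39.5 to 133 CPM in fetuses. In bulk tissue, fewer cells of a type and less RNA per cell cannot be told apart.

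All 7 genes passed the filter on low counts, and 5 of them were called at an adjusted p below 0.05 by edgeR's quasi-likelihood test. AGTR1 was higher in lambs, and AGT, AGTR2, ENPEP and LNPEP were lower. Over all 13624 genes tested, 44.7% were called, 22.0% higher and 22.7% lower in lambs, so a call alone does not set these genes apart. The stages did not overlap for 6 of the 7 genes, against 57.7% of all genes tested. Counts of AGT and AGTR2 cleared the filter in all 3 libraries of the fetal stage only, while AGTR1, ENPEP, LNPEP and ATP6AP2 cleared it in all 6 libraries. MAS1 cleared it in 1 lamb library and 2 fetal libraries, and so in all libraries of neither stage.

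**Figure D1:**
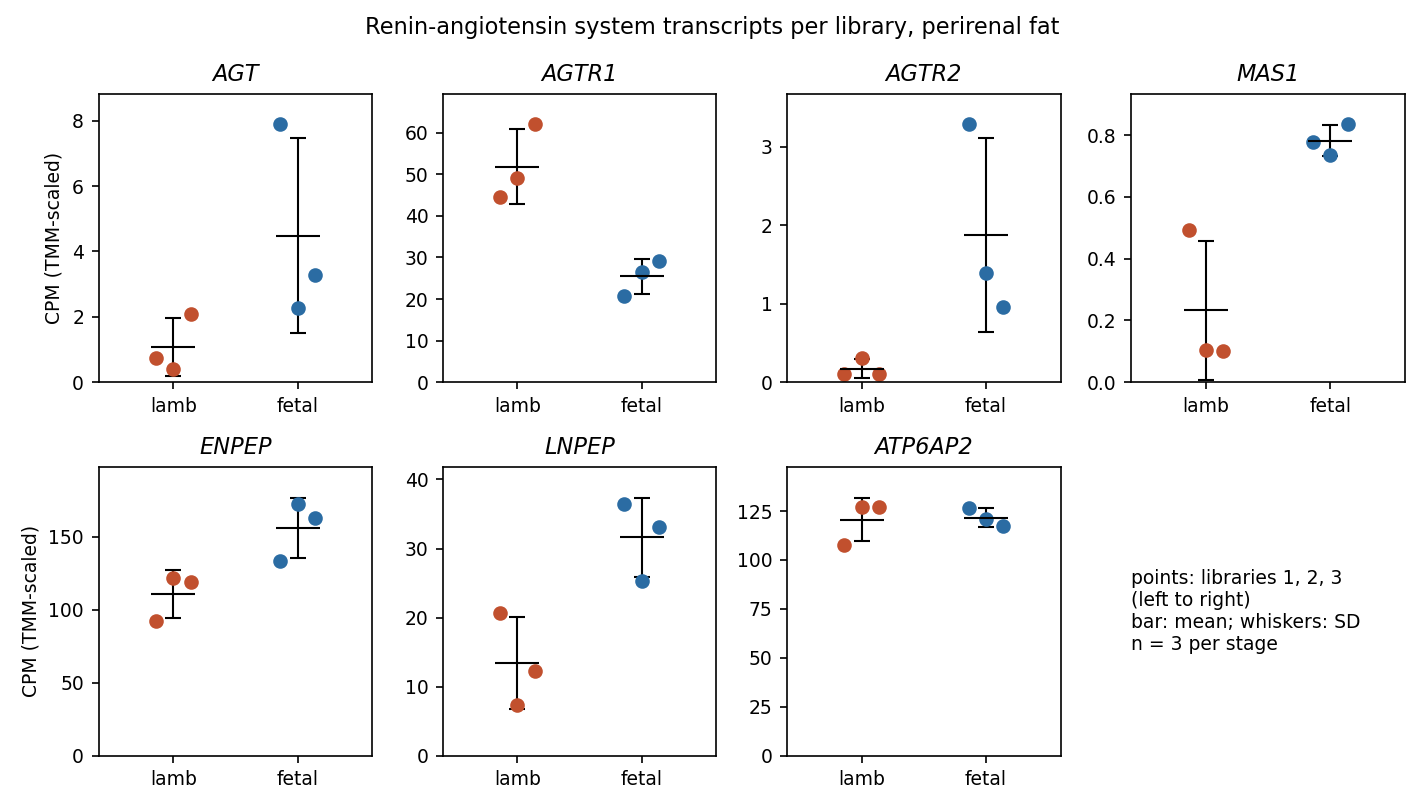
Each panel plots CPM of 1 gene in the 3 lamb libraries and the 3 fetal libraries, with a bar at the mean and whiskers of 1 SD. AGTR1 sits at 44.5 to 62.0 CPM in lambs and 20.7 to 29.1 CPM in fetuses, and ATP6AP2 is the panel in which the stages overlap.

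Angiotensinogen transcripts were scarce at both stages and scarcer in lambs. AGT (ENSOARG00000003055, chromosome 25, 45303043 to 45309821 on Oar v3.1) had 15, 8 and 42 counts in lamb libraries 1, 2 and 3, and 132, 31 and 55 counts in the fetal libraries. Scaled, these were 0.740, 0.415 and 2.10 CPM in lambs and 7.88, 2.28 and 3.28 CPM in fetuses. Every lamb lay below every fetus, but lamb 3 and fetus 2 were close to each other. The log2 difference was -2.04 ± 0.67 (SE; adjusted p = 0.0388), which makes the fetal level 4.12 times that of lambs. Among fetuses AGT and AGTR2 varied most of the 7 genes, the highest library holding 3.46 times the lowest for AGT and 3.44 times for AGTR2.

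The AGT call was lost when any of 4 animals was left out. Without fetus 1 the difference was -1.36 (adjusted p = 0.140), without fetus 3 it was -2.23 (adjusted p = 0.0524), without lamb 1 it was -1.83 (adjusted p = 0.116) and without lamb 2 it was -1.66 (adjusted p = 0.0965). Fetus 1, the library with most AGT, also had the highest urothelial sum, 133 CPM against 52.4 and 39.5 CPM in fetuses 2 and 3. Fetuses 2 and 3 stand in the other order for AGT. Fibroblast and preadipocyte markers had the order of AGT, with 15272, 7448 and 11318 CPM in fetuses 1, 2 and 3, and lambs lay within this range. Fetus 1 was also highest for pericyte and smooth muscle markers and for kidney markers. The part of any of these lists in the AGT result was not tested. With library totals in place of TMM, AGT was at -1.61 (adjusted p = 0.0544). Liver is the main source of circulating angiotensinogen, and the 8 liver markers summed to 524 to 938 CPM in lambs and 64.3 to 265 CPM in fetuses, led by ALB and TF. Of the 6 tested, ALB and TF were higher in lambs, FGG, SERPINA1 and AHSG lower and FGB not called. That is 83.3% called, against 44.7% of all genes tested. For SERPINA1 and AHSG the stages overlapped, since fetus 3 held 3 and 0 counts, fewer than any lamb. AHSG had 185, 1153 and 0 counts in fetuses 1, 2 and 3, so fetus 2 held most of them. The part of the liver markers in the AGT difference was not tested.

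The type 1 receptor moved the other way. AGTR1 (ENSOARG00000015385, chromosome 1, 237523905 to 237524984) had 902, 946 and 1242 counts in lambs and 347, 361 and 488 counts in fetuses. On the CPM scale these were 44.5, 49.0 and 62.0 in lambs and 20.7, 26.5 and 29.1 in fetuses, so that the lowest lamb exceeded the highest fetus. AGTR1 rose by 1.03 ± 0.18 on the log2 scale, or 2.04-fold (adjusted p = 0.00278), and the call held in all 15 alternatives, with differences between 0.88 and 1.50. It is the only one of the 7 genes called as higher in lambs.

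AGTR1 is known in vascular smooth muscle, pericytes and adipocytes, so markers of these cells were set beside it. The summed adipocyte markers reached 27671 to 38241 CPM in lambs and 13464 to 16782 CPM in fetuses. Of the 7 tested 6 were called higher, against 22.0% of all genes tested. The summed markers of pericytes and smooth muscle reached 2038 to 3365 CPM in lambs and 1092 to 1323 CPM in fetuses, led by MCAM at 1513 CPM in lambs and 368 CPM in fetuses. Without MCAM the sums were 588, 1708 and 686 CPM in lambs and 979, 797 and 711 CPM in fetuses, so lambs 1 and 3 lay below every fetus and lamb 2 above. Of the 11 markers, MCAM included, 2 (TAGLN and MCAM) were higher, 2 (ABCC9 and NOTCH3) lower and 7 not called. That is 36.4% called, against 44.7% of all genes tested. The pericyte marker PDGFRB was at 138 CPM in lambs and 145 CPM in fetuses. Endothelial markers summed to 1704 to 1834 CPM in lambs and 1654 to 2045 CPM in fetuses. Macrophage markers summed to 1298 to 1611 CPM in lambs and 182 to 407 CPM in fetuses, led by MRC1 at 992 CPM in lambs and 57.6 CPM in fetuses. Of the 10 macrophage markers 7 were called higher and 3 were not called, against 22.0% of all genes tested called higher. Fibroblast and preadipocyte markers summed to 8288 to 9626 CPM in lambs and 7448 to 15272 CPM in fetuses. Adrenal markers summed to 38.5 to 48.6 CPM in lambs and 23.9 to 35.5 CPM in fetuses, without overlap. They were led by STAR, at 34.9 CPM in lambs and 22.8 CPM in fetuses (not called). Of the 4 adrenal markers tested 1 (NR5A1) was called higher and 3 were not called. That is 25% called, against 44.7% of all genes tested. NR5A1 had 14, 17 and 16 counts in lambs and 3, 4 and 2 counts in fetuses, and was thus tested through the stage in which it is high. What part these shifts in markers had in the AGTR1 difference was not tested.

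The type 2 receptor showed the widest gap of the 7 genes. AGTR2 (ENSOARG00000009828, chromosome X, 110300940 to 110302028) had 2, 6 and 2 counts in lambs and 55, 19 and 16 counts in fetuses. That is 0.0987, 0.311 and 0.0999 CPM in lambs and 3.28, 1.40 and 0.954 CPM in fetuses. Lamb libraries 1 and 3 lie under the level of 3 counts (0.148 and 0.150 CPM), so the lamb level is near the detection limit of this depth, and these limits cover counting error only. AGTR2 fell by 3.43 ± 0.68 on the log2 scale (adjusted p = 0.00518). Without fetus 1, which held most of the fetal counts, the difference was -2.75 (adjusted p = 0.0146), without lamb 2 it was -4.15 (adjusted p = 0.00895), and the call held in all 14 alternatives in which the gene was tested. Urothelial markers were also lower in lambs, with sums of 0.39 to 0.47 CPM. In fetuses 1, 2 and 3 they summed to 133, 52.4 and 39.5 CPM, the order in which the fetuses stand for AGTR2. This order is not particular to them. The sums of pericyte and smooth muscle markers (1323, 1177 and 1092 CPM) and of kidney markers (9.14, 7.86 and 6.80 CPM) had it too, though neither sum was lower in lambs. Fibroblast and preadipocyte markers were also highest in fetus 1, at 15272, 7448 and 11318 CPM in fetuses 1, 2 and 3. That order differs from the order for AGTR2, and lambs lay within this range, at 8288 to 9626 CPM. The part of any of these marker lists in the AGTR2 difference was not tested.

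The balance of the receptors inside each library is a measure that scaling between libraries cannot affect. Their gene models are nearly equal in length, at 1080 bp for AGTR1 and 1089 bp for AGTR2. AGTR1 supplied 99.8%, 99.4% and 99.8% of the counts of both receptors in lambs 1, 2 and 3 and 86.3%, 95.0% and 96.8% in fetuses 1, 2 and 3. The 95% Wilson intervals, for counting error only, ran from 98.6 to 100.0% over the lambs and from 82.6 to 98.0% over the fetuses. AGTR1 gave most of the counts in every library, and the stages did not overlap.

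The log2 ratio of AGTR1 to AGTR2 counts, with 0.5 added to each, averaged 8.21 ± 0.92 in lambs and 3.92 ± 1.15 in fetuses (SD, n = 3 each). The difference of 4.30 had p = 0.1 in a two-sided exact permutation test, the smallest p that 3 against 3 allows. Leaving out any 1 library kept it between 3.66 and 4.81.

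**Figure D2:**
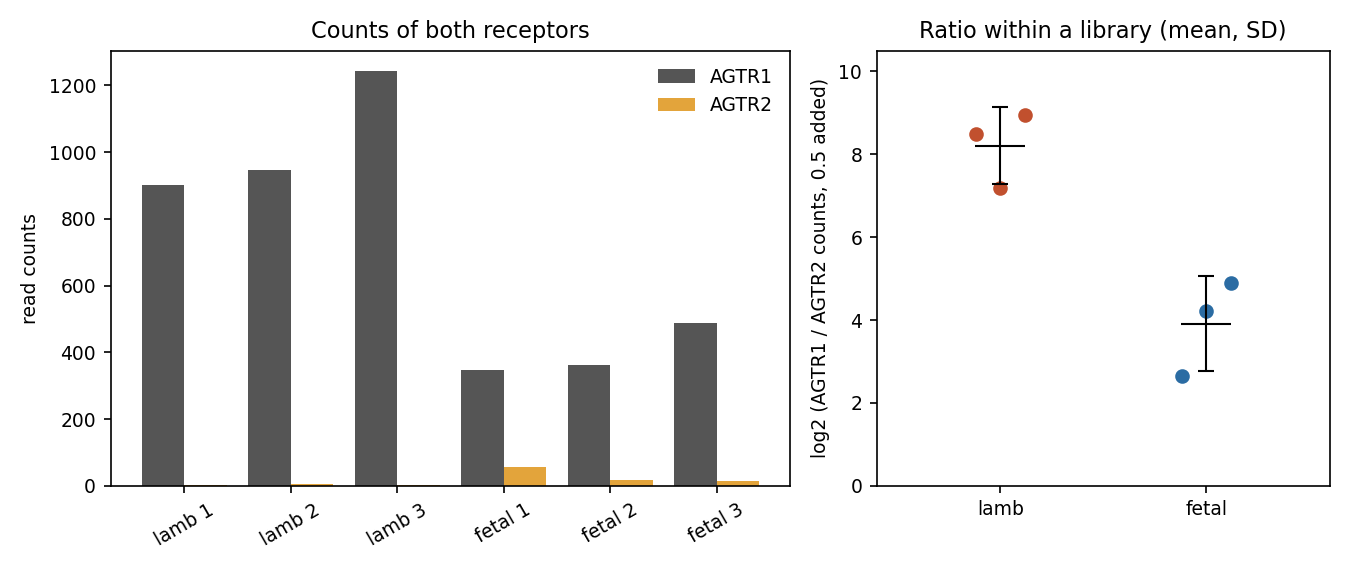
Left, read counts of AGTR1 and AGTR2 in each of the 6 libraries. Right, the log2 ratio of these counts in each library (0.5 added to each count), with the mean and SD of 3 lambs and 3 fetuses; lambs lie between 7.19 and 8.96 and fetuses between 2.65 and 4.89.

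MAS1, a G protein-coupled receptor for a shortened angiotensin fragment (ENSOARG00000002781, chromosome 8, 82782034 to 82783011), was near the detection limit. It had 10, 2 and 2 counts in lambs and 13, 10 and 14 counts in fetuses, or 0.494, 0.104 and 0.0999 CPM in lambs and 0.776, 0.735 and 0.835 CPM in fetuses. The 3 fetuses were tightly grouped while lamb 1 stood well above lambs 2 and 3. The log2 difference of -1.71 ± 0.62 missed the threshold (adjusted p = 0.0552; unadjusted 95% interval -3.15 to -0.27), which does not show that the stages are alike. MAS1 passed without lamb 1 (-2.85, adjusted p = 0.00849) and with limma-voom (-2.00, adjusted p = 0.0280), and its adjusted p ranged from 0.00849 to 0.147 over all alternatives.

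Counts per kilobase of gene model put the receptors on a common scale within a library. AGTR1 had 835, 876 and 1150 counts per kilobase in lambs and 321, 334 and 452 in fetuses, far above both others. AGTR2 had 1.84, 5.51 and 1.84 counts per kilobase in lambs, where MAS1 had 10.2, 2.04 and 2.04, and these ranges overlap. In fetuses AGTR2 had 50.5, 17.4 and 14.7 counts per kilobase, where MAS1 had 13.3, 10.2 and 14.3, so AGTR2 ranked above MAS1 by a small margin in the closest libraries.

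Among the peptidases, ENPEP, or aminopeptidase A, removes the N-terminal residue of angiotensin II, and LNPEP, the insulin-regulated aminopeptidase, is the binding site of a further angiotensin fragment and travels in GLUT4 vesicles. ENPEP (ENSOARG00000003714, chromosome 6, 15012375 to 15092327) had 1864, 2348 and 2380 counts in lambs and 2232, 2349 and 2729 counts in fetuses. Scaled, this was 92.0, 121.7 and 119 CPM in lambs and 133, 173 and 163 CPM in fetuses, with no overlap. The fall was small, at 0.49 ± 0.16 on the log2 scale (adjusted p = 0.0377). The call was lost without fetus 2 (-0.42, adjusted p = 0.118), fetus 3 (-0.47, 0.105), lamb 1 (-0.37, 0.0935) or lamb 3 (-0.55, 0.0553). With scaling by library totals, which shifts the median of all genes to 0.46, ENPEP was at -0.01 (adjusted p = 0.961).

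LNPEP (ENSOARG00000017994, chromosome 5, 93687872 to 93788740) had 418, 142 and 245 counts in lambs and 610, 344 and 555 counts in fetuses. These were 20.6, 7.36 and 12.2 CPM in lambs and 36.4, 25.3 and 33.1 CPM in fetuses. Lambs spread widely, with lamb 1 at 2.80 times lamb 2, yet all 3 lay below the lowest fetus. LNPEP fell by 1.24 ± 0.34 on the log2 scale (adjusted p = 0.0211). The call was lost without fetus 1 (-1.13, adjusted p = 0.0594), fetus 3 (-1.20, 0.0520) or lamb 3 (-1.17, 0.0613) and with library totals (-0.79, 0.0766), and lay at -1.69 without lamb 1.

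ATP6AP2, the prorenin receptor gene (ENSOARG00000001326, chromosome X, 37757140 to 37789188), was the gene whose stages overlapped. It had 2182, 2446 and 2546 counts in lambs and 2121, 1644 and 1964 counts in fetuses, or 108, 127 and 127 CPM in lambs and 127, 121 and 117 CPM in fetuses. The log2 difference was -0.01 ± 0.12 (adjusted p = 0.944), and its 95% interval of -0.29 to 0.26 leaves room for a change of up to about that size. With library totals it was at 0.46 and past the threshold (adjusted p = 0.0464), the same as the shift of the median of all genes, 0.46, under that scaling. When mitochondrial genome genes were left out of those totals, it was at -0.02.

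**Figure D3:**
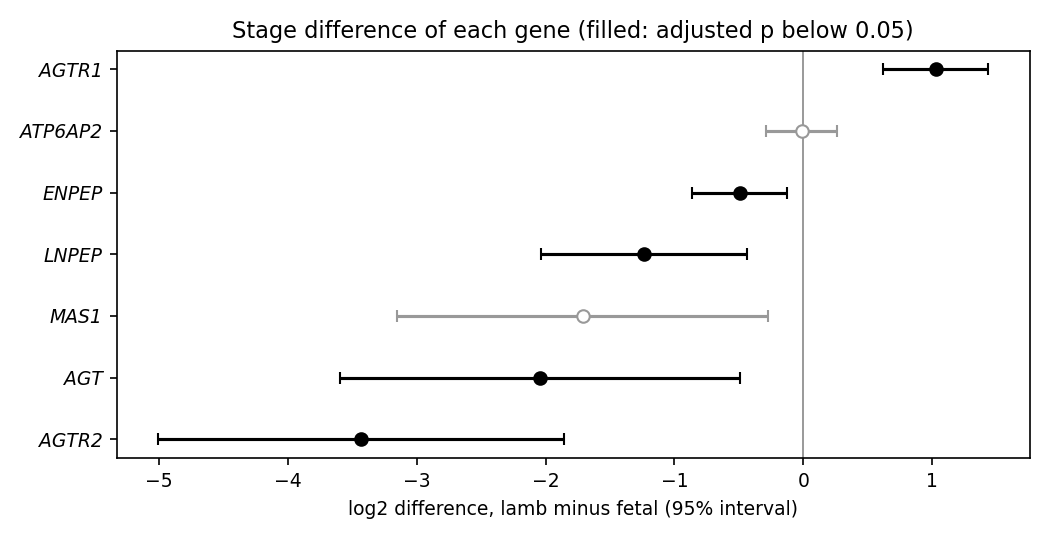
Log2 differences, lamb minus fetal, with 95% intervals that are not adjusted for the number of genes; filled points passed an adjusted p of 0.05. AGTR1 at 1.03 lies right of 0, ATP6AP2 at -0.01 straddles it, and AGTR2 at -3.43 lies farthest to the left.

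Levels of all 7 genes were ordered per length by the authors' mean RPKM. RPKM columns per library were not used here, so these levels carry no spread and neighbours in the order were not compared beyond error. In lambs the order was ATP6AP2 (54.7 RPKM), AGTR1 (41.4), ENPEP (35.9), LNPEP (2.06), AGT (1.07), MAS1 (0.203) and AGTR2 (0.136). In fetuses it was ATP6AP2 (43.3 RPKM), ENPEP (35.5), AGTR1 (14.8), LNPEP (3.37), AGT (2.66), AGTR2 (1.08) and MAS1 (0.505). The AGTR1 level exceeded that of 85.0% of the genes with a mean RPKM above 0 in lambs and of 72.6% in fetuses. AGT exceeded 27.0% of them in lambs and 39.1% in fetuses. For AGT the authors' mean RPKM was 0.402 times as high in lambs as in fetuses while the unscaled mean count was 0.298 times as high, a wider gap than for the other 6 genes, and whether both values rest on the same reads was not tested.

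Of 13 further angiotensin peptidases, 10 were named in the table and tested, of which 1 was higher in lambs, 4 lower and 5 not called. The share called, 50%, is near the 44.7% of all genes tested, and the median log2 difference was -0.74, against -0.01 for all genes tested. No row carries the names CMA1, CTSG or CTSD, which were not analysed here. The gene called as higher was ANPEP, aminopeptidase N, which trims angiotensin fragments. It had 164, 151 and 107 CPM in lambs and 49.1, 18.2 and 30.9 CPM in fetuses, without overlap, and rose by 2.10 ± 0.35. THOP1, an endopeptidase that cleaves angiotensin I, fell by 2.03 ± 0.14, with 13.0, 11.9 and 14.2 CPM in lambs and 45.2, 54.4 and 60.3 CPM in fetuses. CTSA, a lysosomal carboxypeptidase, fell by 1.70 ± 0.19 and PRCP, prolylcarboxypeptidase, which removes the C-terminal residue of angiotensin II, by 1.38 ± 0.20.

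**Figure D4:**
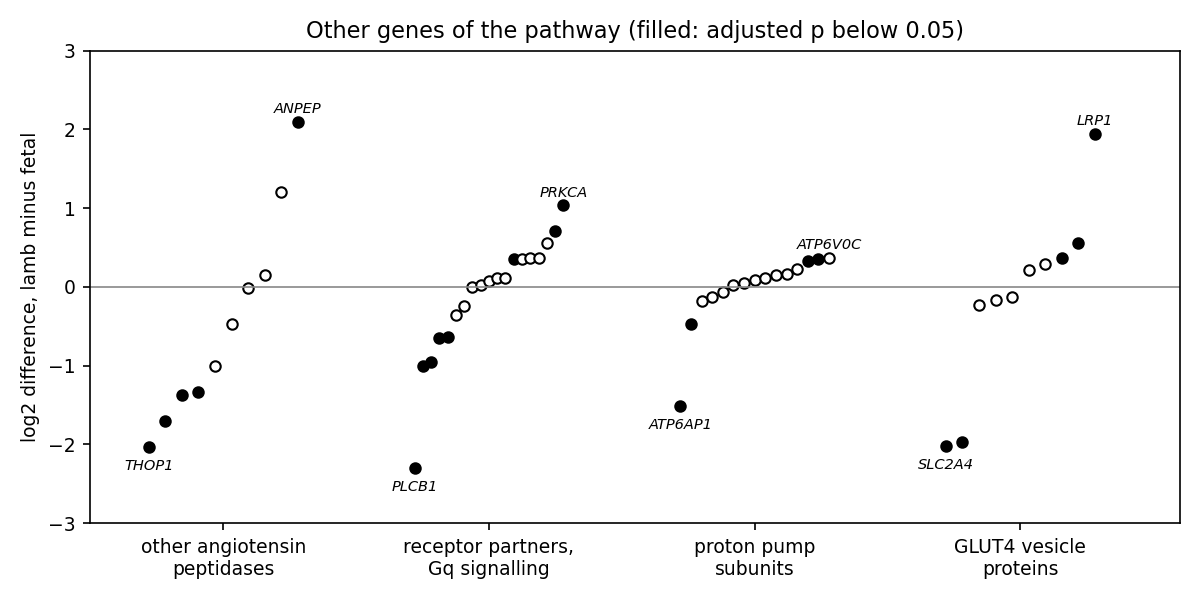
Each circle is the log2 difference, lamb minus fetal, of 1 tested gene in 4 lists of pathway genes, sorted within a list; filled circles passed an adjusted p of 0.05. The lowest and highest gene of each list is named; THOP1 lies at -2.03, ANPEP at 2.10 and LRP1 at 1.95.

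Of 21 genes that act beside or below the type 1 receptor, receptor partners and Gq pathway genes, 19 were tested, of which 3 were higher in lambs, 5 lower and 11 not called. That is 42.1% called, against 44.7% of all genes tested, with a median log2 difference of 0.07 against -0.01. PLCB1, a phospholipase C isoform activated by Gq, fell by 2.30 ± 0.15, with 12.6 to 17.1 CPM in lambs and 63.1 to 77.9 CPM in fetuses. AGTRAP, whose protein binds the type 1 receptor and promotes its internalisation, fell by 0.95 ± 0.22 (adjusted p = 0.0110), with 2.13 to 2.62 CPM in lambs and 3.94 to 5.01 CPM in fetuses. MTUS1, whose product interacts with the type 2 receptor, fell by 1.00 ± 0.15. PRKCA, a protein kinase C isoform, rose by 1.04 ± 0.14. With library totals AGTRAP was at -0.48 and no longer past the threshold (adjusted p = 0.195). The genes of both Gq subunits were among those not called, with GNAQ at -0.24 and GNA11 at 0.11.

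Of the 15 subunits of the proton pump, the complex that ATP6AP2 belongs to, all were tested, 2 were higher, 2 lower and 11 not called (median 0.09). That is 26.7% called, against 44.7% of all genes tested, a difference that was not tested. The other accessory subunit gene, ATP6AP1, fell by 1.51 ± 0.13, with 101 to 116 CPM in lambs and 272 to 332 CPM in fetuses, without overlap. ATP6V1B2 and ATP6V0A1 rose by 0.36 ± 0.12 and 0.33 ± 0.11. Both of these calls were lost in several alternatives, 8 of 15 for ATP6V1B2 and 10 of 15 for ATP6V0A1. The list had 1 to 3 calls on leaving out 1 library and 11 with library totals.

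GLUT4 vesicle proteins share their route with LNPEP. Of 11 such genes 10 were tested, 3 were higher in lambs, 2 lower and 5 not called (median 0.04). The share called, 50%, is near the 44.7% of all genes tested, and 3 calls were left without fetus 1 or fetus 2. SLC2A4, which encodes GLUT4 itself, fell by 2.02 ± 0.31, with 16.3, 8.30 and 20.2 CPM in lambs and 47.8, 65.3 and 68.9 CPM in fetuses. LNPEP and SLC2A4 were thus both lower, and lamb 2 was the lowest library for each. LRP1, a large endocytic receptor found in these vesicles, rose by 1.95 ± 0.21 to 1016 CPM in lambs, against 263 CPM in fetuses. TNKS2, of the tankyrase family that binds LNPEP, rose by 0.55 ± 0.18, and M6PR, 1 of 2 mannose phosphate receptor genes, by 0.37 ± 0.10. The other, IGF2R, counted here among the receptor partners, fell by 0.64 ± 0.15 (adjusted p = 0.0101 by edgeR). Which of their proteins travels in these vesicles was not tested, so the M6PR rise need not be that of a vesicle protein. The TNKS2 call was lost without fetus 1, fetus 2, fetus 3, lamb 1 or lamb 3 (0.38 to 0.58, adjusted p up to 0.1004), and the M6PR call without fetus 1 or fetus 2 and with a replicate block (0.34 to 0.37, adjusted p up to 0.0785).

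The genes whose profile over the 6 libraries was nearest to each of the 4 abundant members were listed by root mean square distance between centred log2 CPM values. For AGTR1 these were ZBTB46, CCDC137 and SEPT11 (distances 0.08 to 0.10), whose log2 differences lay between 0.95 and 1.05. For ENPEP they were RPTOR, EIF1AD and PLEKHG2 (0.06 to 0.07), and for LNPEP they were UHMK1, KIAA2022 and ARNT2 (0.16 to 0.17). For ATP6AP2 they were UCK1, OGFOD1 and SPEN (each at 0.04, none called). With 6 libraries in 2 stages such lists name genes with a like stage difference and spread, and no more.

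**Figure D5:**
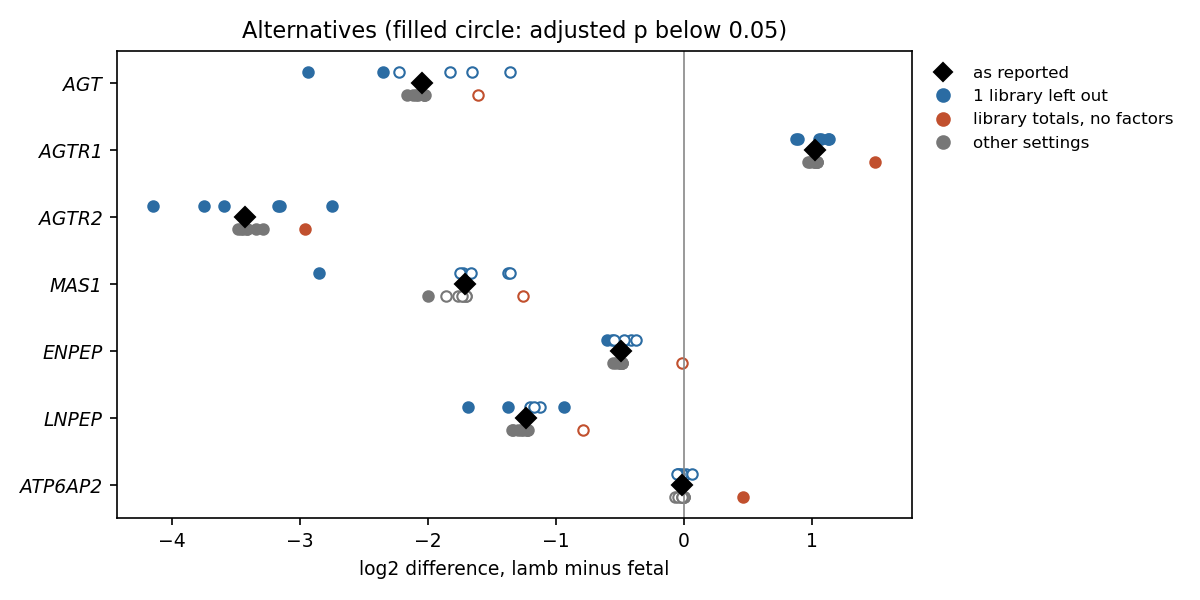
Log2 differences, lamb minus fetal, of the 7 genes as reported (diamonds) and under each alternative (circles, filled where the adjusted p is below 0.05). AGTR1 and AGTR2 stay filled wherever they were tested, AGT spans -2.94 to -1.36, and scaling by library totals moves every gene to the right, ATP6AP2 to 0.46.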

How the data were processed

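The authors deposited whole-number read counts per gene and library, and mean RPKM per stage. Per the series' design text, the authors mapped reads with CLC Genomics Workbench (v7.0) to Ensembl models on Oar v3.1; for strand and for reads with several placements no setting is given in the sources used here. In the table used, 6 columns of RPKM per library were left out, since a header repeats another's name. No listed gene overlaps any of the 7, the nearest being COG2, 4626 bp from AGT. The test was edgeR 4.0.16 under R 4.3.3 (filterByExpr, TMM, quasi-likelihood F test, no covariates). Adjusted p-values are Benjamini-Hochberg over all 13624 genes tested. SE is the log2 difference divided by the root of F. The code was tested on simulated data, with log2 changes of 1 in 99 and of 2 in 100 of 13493 genes. It recovered 38.4% of the former and 94% of the latter, and 6.38% of its calls were false. The real data hold a far larger share of called genes, so these rates need not carry over. A gene not called is thus not shown to be unchanged. Alternatives used limma 3.58.1 and DESeq2 1.42.0. Genes and lists were chosen with earlier results of these data known. From each pathway list the text names called genes of at least 1 CPM with the largest changes. It names up to 3 in the commoner direction and 1 in the other. GNAQ, GNA11, IGF2R, TAGLN, MCAM, ABCC9, NOTCH3, PDGFRB, FGG, SERPINA1, AHSG, FGB, NR5A1 and KLKB1 were named after their values were seen. Names in RefSeq (ARS-UI_Ramb_v3.0) matched all 7 genes. Sequences of the genes were not used here, and some genes of the pathway are not reported here.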

Additional observations from a re-analysis of the deposited data

How the results depend on the processing

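Results were recomputed under 15 alternatives. Genes called numbered 6095 as reported, 4798 to 5654 without 1 library and 5353 under a replicate block; library totals gave 7067, of which 79.4% were higher in lambs against 49.3% with TMM. Deviations of same-numbered animals had correlations of 0.003, -0.116 and 0.046 for numbers 1 to 3. No lamb correlated best with the fetus of its own number. With 3 animals per stage these values cannot exclude a pairing by number, and the numbers were taken as names only. The replicate block left 5 of the 7 members called and changed no call among them. Members called were 5 as reported, 3 with library totals, 3 with at least 5 CPM in 3 libraries (AGT, AGTR2 and MAS1 are then not tested, by construction), 6 with limma-voom and 2 to 4 without 1 library. AGTR1 and AGTR2 kept their calls in every alternative that tested them. Library totals gave -1.61 for AGT (adjusted p = 0.0544), -0.012 for ENPEP and -0.79 for LNPEP, and MAS1 passed with limma-voom at -2.00. Leaving out 1 library gave -2.94 to -1.36 for AGT, 0.88 to 1.13 for AGTR1, -4.15 to -2.75 for AGTR2, -2.85 to -1.36 for MAS1, -0.60 to -0.37 for ENPEP, -1.69 to -0.94 for LNPEP and -0.051 to 0.067 for ATP6AP2. ATP6AP2 changed sign to 0.0011 with DESeq2 size factors, 0.0010 with the DESeq2 Wald test, 0.0034 with any gene of at least 1 count, 0.46 with library totals, 0.015 without fetus 1 and 0.067 without lamb 1; the cause was not tested except for library totals, where leaving out mitochondrial genome genes returned -0.020. The receptor ratio difference was 4.12 with 1 added in place of 0.5, 3.66 to 4.81 without 1 library and 4.30 with the replicate block (exact p = 0.25, the smallest that 3 pairs allow). Depth limits AGTR2 in lambs and MAS1 in lambs 2 and 3, with 2 to 6 counts a library. A planned ratio with ACE was not run.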

Other observations

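The kinin system shares peptidases with the angiotensins. Of 10 of its genes 9 were named in the table and 6 tested, of which 3 were higher, 1 lower and 2 not called, with a median of 1.35; of all genes tested 44.7% were called. KNG1, the kininogen precursor of bradykinin, had 11.7, 8.81 and 18.0 CPM in lambs and 2.87, 0.735 and 0.238 CPM in fetuses (log2 difference 3.30 ± 0.69, adjusted p = 0.00638 by edgeR). KNG1 cleared the filter in all 3 lamb libraries but not in fetuses 2 and 3, which held 10 and 4 counts. It was thus tested through the stage in which it is high. Leaving out 1 library gave KNG1 differences of 2.80 to 4.75, the largest without fetus 1. XPNPEP2, a membrane aminopeptidase that inactivates bradykinin, rose by 3.01 ± 0.26, and CPM, a carboxypeptidase acting on kinins, by 1.99 ± 0.42. XPNPEP1, its cytosolic relative, fell by 1.17 ± 0.15. KLKB1, which encodes plasma prekallikrein, did not pass the filter; it had 21, 282 and 8 counts in lambs and 0, 1 and 0 counts in fetuses, so lamb 2 held nearly all of them.

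Angiotensin II also drives aldosterone release, and of 10 genes listed for that arm 5 were tested, of which 2 were higher, 1 lower and 2 not called. That is 60% called, against 44.7% of all genes tested, a difference that was not tested. The median log2 difference was 0.20, against -0.01 for all genes tested. FKBP5 and SGK1, which respond to glucocorticoids as well as to aldosterone, rose by 4.75 ± 0.39 and 1.56 ± 0.18. FKBP5 had 147, 209 and 363 CPM in lambs and 9.26, 11.1 and 6.50 CPM in fetuses. LCN2, a secreted lipocalin, fell by 2.14 ± 0.29, with means of 0.857 CPM in lambs and 3.79 CPM in fetuses. The mineralocorticoid receptor gene was not analysed here, as no row carries the name NR3C2.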
